A study of Mus musculus with 4 samples.

Results

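The tubulin isotypes are 10 genes for the proteins that build microtubules, and they were taken by symbol from a table of 21738 mouse genes. They are the alpha-tubulin genes Tuba1a, Tuba1b and Tuba1c, the beta-tubulin genes Tubb2a, Tubb2b, Tubb3, Tubb4b, Tubb5 and Tubb6, and the gamma-tubulin gene Tubg1. All 10 passed the minimum level for testing, as did 12585 genes in all. The RNA came from neurospheres, which are free-floating balls of cultured neural stem and precursor cells, grown for 7 days from the ventricular-subventricular zone of CD1 mice, wild type and 7 or 8 days old. It was co-precipitated either with an antibody against 4E-T, a P-body protein that binds the cap-binding factor eIF4E and represses translation (2 libraries), or with a control IgG (2 libraries). The labels number the libraries of each antibody as experiments 1 and 2. Genotype, strain, age and culture time are the same in all 4 libraries. The labels do not say how many animals were pooled or whether the experiments used separate cultures, so the tests judge differences against the spread among these 4 libraries, which may be technical. No unprecipitated RNA was analysed here, so each value compares the 2 antibodies and does not give the amount of RNA that each recovered.

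Alpha- and beta-tubulin form the dimer that polymerises into microtubules, while gamma-tubulin sits in the ring complex that starts new ones. Mammals carry several genes for each, and the isotypes differ mainly in their acidic tails and in the tissues that use them. Dividing precursors need tubulin for the spindle, and young neurons need it for growing processes. Cells also adjust tubulin mRNA to the pool of free tubulin: in human cells TTC5 binds the start of a nascent tubulin chain on the ribosome and, with SCAPER and the CCR4-NOT deadenylase, has the mRNA degraded.

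The libraries held 72769612 to 85828188 reads over the listed genes, recovered from the deposited values. Of the 12585 tested genes, 34.3% were called higher and 15.2% lower with 4E-T (limma adjusted p under 0.05), so 69.3% of the calls were higher, against 49.2% with median ratio scaling. The median tested gene lay 0.16 higher with 4E-T on the log2 scale, and at -0.0025 after that scaling. Among 12 markers of neural stem and precursor cells, all tested, 7 were higher and 0 lower, and their summed FPKM (fragments scaled per kilobase of exon and by library) was 3403 and 3588 in the IgG libraries and 5369 and 4086 in the 4E-T libraries. Astrocyte markers numbered 2 higher (Aldh1l1 and Sox9) and 1 lower (Aqp4) among 5 tested. Gfap (log2 difference -0.24) and Slc1a2 (-0.075) were not called, and the median of the tested markers was -0.075, against 0.16 for all tested genes. Their summed FPKM was 427 and 410 in the IgG libraries and 984 and 795 in the 4E-T libraries. Most of that sum was Aldh1l1, with 308 and 276 in the IgG libraries and 784 and 619 in the 4E-T libraries. The part of these markers in the tubulin values was not tested. Ependymal markers numbered 0 and 0 among 3 tested. None of 7 microglial markers and none of 9 endothelial, mural and fibroblast markers reached the minimum for testing.

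Tubulin transcripts were higher with 4E-T for 7 of the 10 genes and lower for 0, against 34.3% and 15.2% of all tested genes. The pair Tubb2a and Tubb2b stood at 2.54-fold and 2.58-fold, Tubb4b at 1.80-fold and Tubb5 at 1.60-fold. The alpha genes lay between 1.21-fold and 1.40-fold, and of these Tuba1b was called. Tuba1a, Tuba1c and Tubb6 did not pass the test. At the deposited scaling both 4E-T libraries lay above both IgG libraries in all 10 genes, as they did in 50.5% of tested genes. It follows from this that both experiments had a positive difference in all 10, which is no separate evidence. With median ratio scaling the antibodies overlapped for Tuba1c and Tubb6. The median log2 difference of the 10 genes was 0.51. Without IgG library 2 the count of called genes was 3, those being Tubb2a, Tubb2b and Tubb4b, against 19.0% of tested genes, and without 4E-T library 2 it was 8, against 33.8%. With median ratio scaling 5 of the 10 were called higher, against 22.8% of tested genes. No member changed sign under any of the 12 alternatives run, though the smallest differences came near 0 under another scaling. With median ratio scaling and quantile normalisation the log2 difference was 0.21 and 0.075 for Tuba1a, 0.090 and 0.085 for Tuba1c, and 0.078 and 0.097 for Tubb6. The authors' deposited table has an adjusted p under 0.05 and a higher level with 4E-T for 8 of the 10, with Tuba1a as the eighth, against 33.3% of the genes tested here and 20.0% of all those listed.

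**Figure D1:**
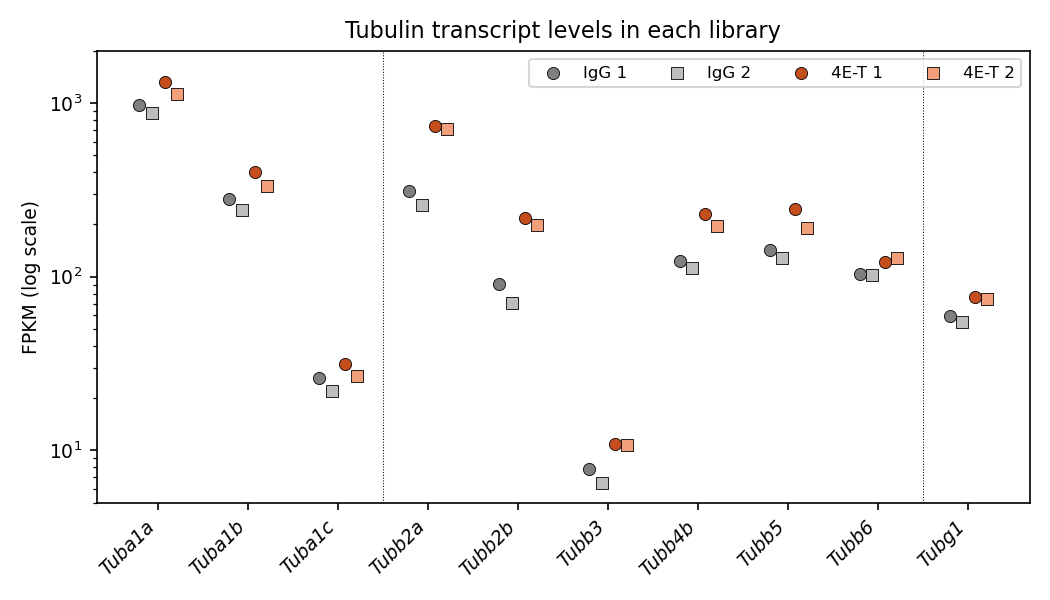
FPKM of the 10 tubulin genes (log scale) in each of the 4 libraries, with IgG in grey and 4E-T in orange, and alpha, beta and gamma genes parted by dotted lines. Both 4E-T points lie above both IgG points for every gene, with the widest gap at Tubb2a (258 to 313 against 712 to 738) and Tubb2b.

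Tuba1a, the main alpha-tubulin of developing neurons, was the most abundant tubulin transcript and ranked 12th by level among all tested genes. It had 981 and 873 FPKM in the IgG libraries and 1317 and 1127 in the 4E-T libraries. The antibodies did not overlap, yet the gap between the highest IgG and the lowest 4E-T library was about as wide as that between the libraries of 1 antibody. The means were 927 ± 76.0 and 1222 ± 134 (SD, n = 2 each), and the log2 difference of 0.40 ± 0.19 (SE) missed the threshold (limma adjusted p = 0.0842). Its 95% interval, which is not adjusted for the number of genes, ran from 0.0070 to 0.79. Without 4E-T library 2 the difference was called (0.51, limma adjusted p = 0.00876).

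Tuba1b, a broadly expressed alpha-tubulin, had 281 and 242 FPKM in the IgG libraries and 402 and 333 in the 4E-T libraries. It rose by 0.49 ± 0.17 on the log2 scale (limma adjusted p = 0.0209). It no longer passed when either IgG library (limma adjusted p of 0.102 and 0.2995 for 1 and 2) or 4E-T library 1 (0.0992) was left out, or with median ratio scaling (0.108). Tuba1c, a minor alpha isotype here, had 26.0 and 22.1 FPKM in the IgG libraries and 31.6 and 26.9 in the 4E-T libraries. At the deposited scaling its highest IgG library lay just under its lowest 4E-T library. Its log2 difference was 0.27 (95% interval -0.022 to 0.57; limma adjusted p = 0.116). Tuba1c was at 0.16 both without IgG library 2 and without 4E-T library 1, and at 0.15 after removal of a trend with gene length, and it was called in 0 of the 12 alternatives. The 3 alpha genes lie side by side on chromosome 15 (GRCm38.p6), Tuba1b at 98931429 to 98934390, Tuba1a at 98949847 to 98953501 and Tuba1c at 99029891 to 99038105. Their coding sequences are nearly identical, so the split of reads between them depends on how the authors' counting treated reads that fit several genes, which is not given in the sources used here. The library preparation did not mark strand, and Tuba1b overlaps the predicted gene Gm41396. Reads from the stretch they share could come from either gene, and how the counting treated them is not given either.

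Tubb2a and Tubb2b encode the beta isotypes that dominate in brain, and variants in the human genes disturb cortical development. They had the largest differences of the 10. Tubb2a had 313 and 258 FPKM in the IgG libraries against 738 and 712 in the 4E-T libraries. The 4E-T libraries were close together and more than 2 times the higher IgG library. The means were 286 ± 39.1 and 725 ± 18.3 (SD, n = 2 each), a log2 difference of 1.35 ± 0.18 (SE), with a limma adjusted p of 6.69e-07. Tubb2b had 91.1 and 70.4 FPKM in the IgG libraries against 219 and 199 in the 4E-T libraries. Its means were 80.8 ± 14.7 and 209 ± 14.2, a log2 difference of 1.37 ± 0.16 (limma adjusted p = 1.52e-07). Both stayed past the threshold in 12 of 12 alternatives, with log2 differences from 1.13 to 1.49 for Tubb2a and from 1.18 to 1.55 for Tubb2b. They ranked 79th and 69th by difference among the 12585 genes, of which 3.57% were called at least 2-fold higher.

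The pair kept its proportions within the spread between libraries. The ratio of Tubb2b to Tubb2a FPKM was 0.291 and 0.273 in the IgG libraries and 0.296 and 0.279 in the 4E-T libraries, so the antibodies overlapped (exact two-sided permutation p = 0.667). The log2 difference of this ratio was 0.029, and it turned to -0.017 without IgG library 2 and to -0.014 without 4E-T library 1. Both genes were further from IgG in experiment 2 (1.46 for Tubb2a and 1.48 for Tubb2b on the log2 scale) than in experiment 1 (1.23 and 1.25). They lie 49.0 kb apart on chromosome 13, Tubb2a at 34074278 to 34078008 and Tubb2b at 34127008 to 34130354 (GRCm38.p6). Their coding sequences are also nearly identical, so reads may have been split between them, and the ratio is uncertain for that reason.

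Tubb4b, a widely used beta isotype that is also found in cilia, had 123 and 112 FPKM in the IgG libraries and 228 and 197 in the 4E-T libraries. The antibodies were well apart. It rose by 0.85 ± 0.16 on the log2 scale (limma adjusted p = 9.28e-05) and was called in 12 of 12 alternatives. Tubb4b (chromosome 2, 25222158 to 25224702) overlaps Fam166a. Reads from the stretch they share could come from either gene, and how the counting treated them is not given in the sources used here. Tubb5, the most generally expressed beta isotype and the one most tied to dividing cells (chromosome 17, 35833920 to 35838301), had 143 and 128 FPKM in the IgG libraries and 246 and 191 in the 4E-T libraries. Its 4E-T libraries differed more than its IgG libraries did (SD 38.6 against 10.4). It rose by 0.68 ± 0.17 (limma adjusted p = 0.00137), and did not pass when IgG library 2 was left out (0.60, limma adjusted p = 0.0971).

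Tubb3, the beta isotype used as a marker of neurons, was the least abundant of the 10. It had 7.86 and 6.52 FPKM in the IgG libraries and 10.9 and 10.8 in the 4E-T libraries, and 1079 to 1526 recovered reads per library. The antibodies did not overlap, and the log2 difference was 0.54 ± 0.14 (SE), with a limma adjusted p of 0.00188. It was 0.42 with IgG library 2 left out, which did not pass (limma adjusted p = 0.0651). Of 14 markers of neurons and neuroblasts, 10 were tested, 0 were higher and 2 lower (Nefm and Syp), and the summed FPKM was 148 and 148 in the IgG libraries and 149 and 155 in the 4E-T libraries. The list spread widely in level. Over the 4 libraries Map2 stood at 54.7 to 65.8 FPKM, Gap43 at 47.8 to 56.3 and Eno2 at 13.0 to 26.2, none of them called (log2 differences of -0.021, 0.12 and 0.48). Elavl4 (-0.13), Elavl3 (-0.14), Ina (-0.11), Nefl (-0.15) and Snap25 (-0.28) were lower in level and not called either. The median of the tested markers was -0.14, against 0.16 for all tested genes, of which 34.3% were higher and 15.2% lower. Dcx stood at 0.264 to 0.556, Rbfox3 at 0.318 to 0.398, Syt1 at 0.131 to 0.183 and Stmn2 at 0.060 to 0.090, and these 4 were under the level for testing. In bulk immunoprecipitates, a transcript held by more cells and more bound copies per cell cannot be told apart.

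Tubb6, a beta isotype low in adult brain, was the beta gene with the smallest difference. It had 103.7 and 102.7 FPKM in the IgG libraries and 121 and 128 in the 4E-T libraries. The libraries of each antibody were close to each other, and at the deposited scaling the groups did not overlap. The log2 difference of 0.27 ± 0.15 (95% interval -0.049 to 0.58) missed the threshold (limma adjusted p = 0.153), and it was called in 0 of the 12 alternatives. Tubg1, the gamma-tubulin of dividing cells (chromosome 11, 101119904 to 101126423), had 59.8 and 55.0 FPKM in the IgG libraries and 76.0 and 74.0 in the 4E-T libraries. It rose by 0.38 ± 0.15 on the log2 scale (limma adjusted p = 0.0317). It did not pass when either IgG library (limma adjusted p of 0.106 and 0.237 for 1 and 2) or 4E-T library 1 (0.0873) was left out, with median ratio scaling (0.181) and after removal of a trend with gene length (0.0655).

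**Figure D2:**
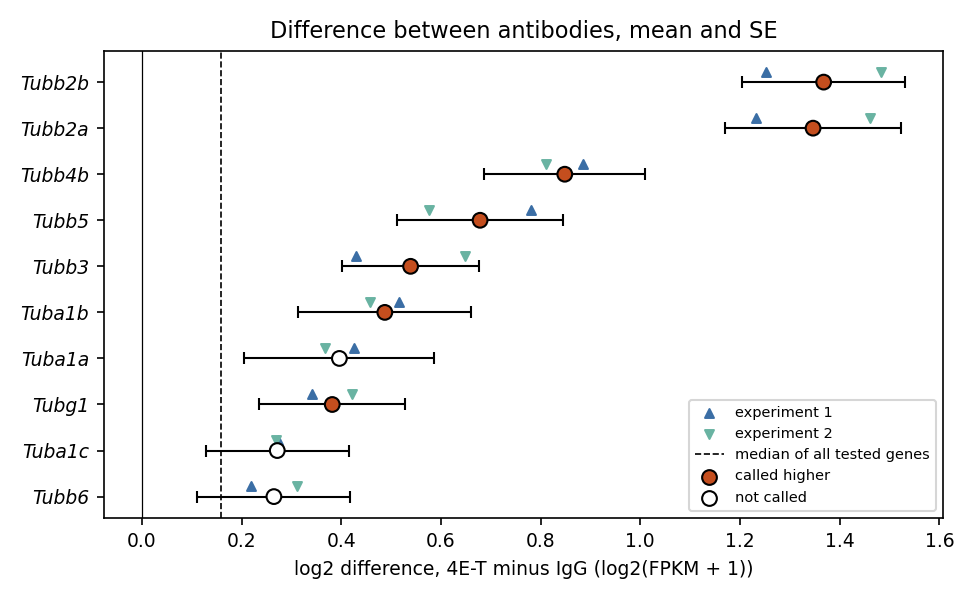
Log2 difference of each tubulin gene, 4E-T minus IgG on the log2(FPKM + 1) scale, with its SE (bars) and the difference within each experiment (triangles). Filled points passed the test. Tubb2a and Tubb2b stand apart at 1.35 and 1.37, and all 10 points lie to the right of the median tested gene (dashed line, 0.16).

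Levels can be compared between genes because FPKM is scaled by length. The order of mean FPKM with IgG was Tuba1a, Tubb2a, Tuba1b, Tubb5, Tubb4b, Tubb6, Tubb2b, Tubg1, Tuba1c and Tubb3. Of the neighbours in that order, Tubb2a and Tuba1b overlapped over their libraries. With 4E-T the order was Tuba1a, Tubb2a, Tuba1b, Tubb5, Tubb4b, Tubb2b, Tubb6, Tubg1, Tuba1c and Tubb3. There Tubb2b stood above Tubb6 and Tubb2a did not overlap Tuba1b, while Tubb4b overlapped both Tubb5 above it and Tubb2b below it. The 3 most abundant genes were among the 100 tested genes of highest level, and Tuba1c and Tubb3 ranked 3163rd and 7047th.

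The balance of summed alpha to summed beta FPKM differed between the antibodies. Summed over the 3 alpha genes, FPKM was 1287 and 1137 in the IgG libraries and 1751 and 1486 in the 4E-T libraries, 1.33-fold higher. Summed over the 6 beta genes it was 782 and 677 in the IgG libraries and 1562 and 1437 in the 4E-T libraries, 2.06-fold higher. Tubb2a and Tubb2b, at 2.54-fold and 2.58-fold, weigh heavily in the beta sum, with 51.7% and 48.5% of it under IgG. Not every beta gene followed the sum. Tubb6, at 1.20-fold, lay under the alpha genes (1.21-fold to 1.40-fold), and the other beta genes lay above them, from 1.45-fold (Tubb3). The ratio of alpha to beta FPKM was 1.65 and 1.68 in the IgG libraries and 1.12 and 1.03 in the 4E-T libraries. It was close within each antibody and did not overlap between them. On the log2 scale the alpha sum was higher by 0.41, by 0.23 with median ratio scaling and by 0.13 with quantile normalisation, and the beta sum by 1.04, 0.85 and 0.86. A ratio within a library is not changed by any scaling of that library as a whole. With 2 libraries against 2 an exact permutation test can give no p below 0.333, which is the value for both sums and for the ratio.

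Within the beta genes, Tubb2a made up 40.1% and 38.1% of the summed FPKM under IgG and 47.2% and 49.5% under 4E-T. Tubb2b made up 11.7% and 10.4% under IgG and 13.99% and 13.8% under 4E-T. Together the pair held 51.7% and 48.5% under IgG against 61.2% and 63.4% under 4E-T, a mean gain of 12.2 percentage points. The other 4 beta genes had smaller shares with 4E-T. Tubb6 went from 13.3% and 15.2% to 7.73% and 8.89%, and Tubb5 from 18.3% and 18.9% to 15.7% and 13.3%. Tubb4b held 15.8% and 16.5% under IgG and 14.6% and 13.7% under 4E-T, and Tubb3 about 1% or less in each library. These shares differed between antibodies by more than the spread within them, and each had the same smallest exact p of 0.333. The alpha genes kept nearly the same make-up, with Tuba1a at 76.2% and 76.8% under IgG and 75.2% and 75.8% under 4E-T. Tuba1b held 21.8% and 21.3% under IgG and 23.0% and 22.4% under 4E-T, and Tuba1c 2.02% and 1.95% against 1.80% and 1.81%. These small shifts did not overlap between the antibodies either, with the same exact p of 0.333.

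**Figure D3:**
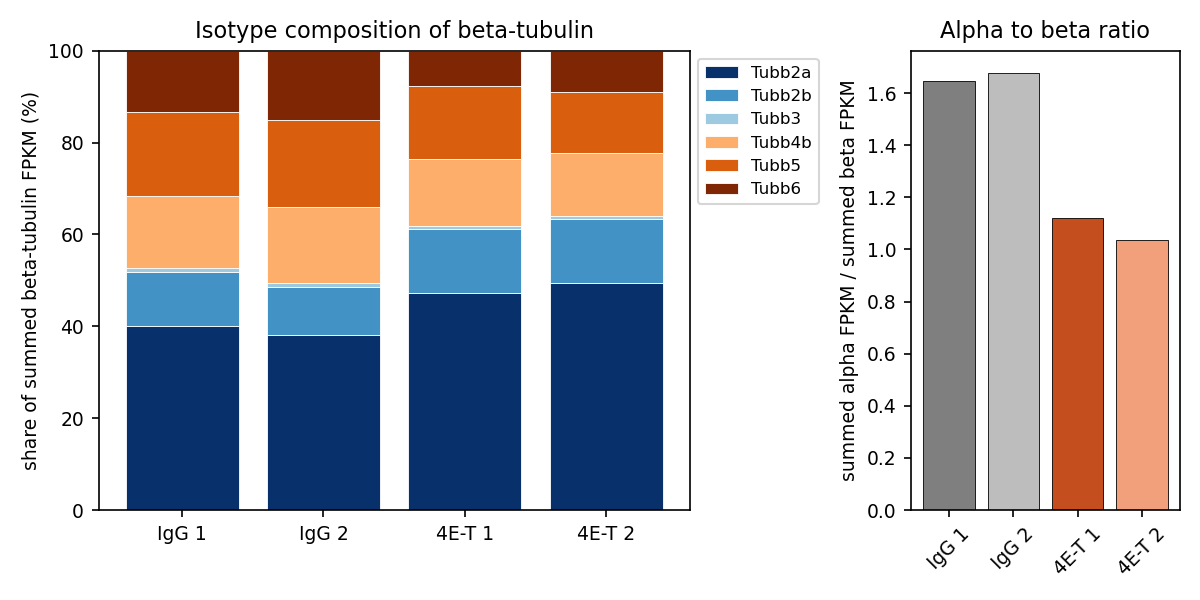
Left, share of each beta isotype in the summed beta-tubulin FPKM (percent) in each library. Right, ratio of summed alpha to summed beta FPKM. The 2 dark blue and blue segments (Tubb2a and Tubb2b) hold 48.5% to 51.7% with IgG and 61.2% to 63.4% with 4E-T, and the ratio is 1.65 and 1.68 against 1.12 and 1.03.

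The tubulin mRNAs are short. Their exon lengths, as implied by the deposited values, ran from 1598 bp (Tubb4b) to 2649 bp (Tubb5), with a median of 1780 bp, against 3175 bp for all tested genes, 3791 bp for genes called higher with 4E-T and 2750 bp for genes called lower. After removal of the trend with gene length, 6 of the 10 were called higher, against 23.1% of tested genes. The pattern over the 4 libraries was compared by the Euclidean distance between mean-centred log2 values. The genes nearest to Tuba1a were the dynactin subunit gene Dctn2 (distance 0.013), the cytokinesis gene Ect2 (0.019) and Wrap53 (0.022). Nearest to Tubb2a were Zfp619 (0.084), Tubb2b (0.091) and Sap130 (0.095). Whether a near pattern over 4 libraries reflects a shared function was not tested.

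Among 10 other tubulin genes, 6 were listed and 4 tested, of which 2 were higher and 0 lower (median log2 difference 0.24). Over all tested genes, 34.3% were higher and 15.2% lower. Tubb4a, the beta isotype of oligodendrocytes and neurons, had 15.8 and 17.4 FPKM in the IgG libraries and 29.2 and 30.8 in the 4E-T libraries, and rose by 0.81 ± 0.14 on the log2 scale (limma adjusted p = 2.32e-05). Of 10 oligodendrocyte lineage markers, 7 were tested, 4 were higher and 1 lower, with a summed FPKM of 1510 and 1440 under IgG and 1862 and 1504 under 4E-T. The higher ones were Cspg4 (log2 difference 1.70), Cnp (0.93), Pdgfra (0.92) and Sox10 (0.41). Olig1 at 902 to 1112 FPKM and Olig2 at 289 to 484 were not called, and Mag, Mog and Mbp were under the level for testing. Their part in the Tubb4a value was not tested. Delta-tubulin, a centriole component encoded by Tubd1, was higher by 0.35 ± 0.14. Tubd1 did not pass when IgG library 2 (limma adjusted p = 0.295), 4E-T library 1 (0.0925) or 4E-T library 2 (0.101) was left out, nor with no filter, median ratio scaling, quantile normalisation or the length trend removed, and its lowest difference over the 12 alternatives was 0.17. Tube1 (epsilon-tubulin) and Tubg2 had differences of 0.13 ± 0.14 and -0.12 ± 0.13 and were not called.

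Genes that fold, modify or bind tubulin were read from 7 further lists. With the other tubulin genes they held 128 tested genes, of which 62 were higher and 12 lower, against 34.3% and 15.2% of all tested genes. Their median log2 difference was 0.31, against 0.16. Leaving out IgG library 2 gave 41 higher and 6 lower, and leaving out IgG library 1 gave 8 lower. Lower genes numbered 25 with median ratio scaling, 25 with quantile normalisation and 26 with the length trend removed. Over all tested genes, lower calls went from 1912 to 2969, 2827 and 2958 in the same order. Higher calls over all tested genes went from 4318 to 2870, 3157 and 2913. Both counts over all tested genes also fell when either IgG library was left out. Chaperonin and prefoldin subunits, which fold new tubulin chains and hand them over, numbered 8 higher and 3 lower among 14 tested (median 0.45). The CCT chaperonin accounted for all 8 higher genes, with log2 differences from 0.43 to 1.04 over its 8 subunits. Prefoldin had 0 higher and 3 lower of 6, from -0.94 to -0.12. This division of the list was made after the values were seen. Cct2 (1.04 ± 0.17) and Cct5 (0.88 ± 0.18) were the highest, and Pfdn4 (-0.94 ± 0.14) and Pfdn5 (-0.51 ± 0.14) the lowest. Without IgG library 2 the list had 4 higher and 1 lower, Pfdn5 not being called (limma adjusted p = 0.0734), and without IgG library 1 it had 5 higher. With median ratio scaling it had 5 higher and 5 lower, and with quantile normalisation 7 and 6. The counts over all tested genes, given above, also had fewer higher and more lower genes with these scalings.

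Tubulin folding cofactors, which assemble the alpha-beta dimer, numbered 4 higher and 2 lower among 10 tested (median 0.19). The shares over all tested genes were 34.3% and 15.2%. Tbcd (0.85 ± 0.15, SE), a cofactor that holds beta-tubulin, and Tbcc (0.73 ± 0.15), which releases the dimer, were higher. Tbca (-0.47 ± 0.15), another beta-tubulin binder, and Pdcl3 (-0.38 ± 0.14) were lower. With either IgG library or 4E-T library 2 left out, Tbca did not pass (limma adjusted p of 0.160 and 0.104 for the IgG libraries and 0.218), nor did Pdcl3 (0.0627, 0.238 and 0.257 in the same order). With either IgG library left out, the list had 2 higher and 0 lower. Over all tested genes, calls in both directions were also fewer with either IgG library left out. Neither Tbca nor Pdcl3 passed with no filter on low values.

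Genes of tubulin mRNA autoregulation numbered 3 higher and 2 lower among 8 tested (median 0.11), against 34.3% and 15.2% of all tested genes. Scaper rose by 0.87 ± 0.14 (SE) and Cnot1, the scaffold of CCR4-NOT, by 0.74 ± 0.15. Cnot11, the subunit that binds SCAPER in human cells, had 11.4 and 10.4 FPKM in the IgG libraries and 16.7 and 16.0 in the 4E-T libraries and was the third higher gene. The deadenylase genes Cnot7 (-0.71 ± 0.15) and Cnot6 (-0.44 ± 0.15) were lower, while the deadenylase genes Cnot8 (0.11 ± 0.15) and Cnot6l (-0.016 ± 0.13) were not called. Cnot6 did not pass with either IgG library (limma adjusted p of 0.144 and 0.0814 for 1 and 2) or 4E-T library 1 (0.103) left out. Ttc5, which recognises the nascent tubulin chain, had 46.7 and 45.9 FPKM in the IgG libraries and 49.9 and 49.8 in the 4E-T libraries and was not called (0.10 ± 0.14). Cnot11, Cnot8, Cnot6l and Ttc5 were named after their values were seen.

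Tubulin modifying enzymes numbered 5 higher and 1 lower among 21 tested (median 0.14), against 34.3% and 15.2% of all tested genes. Of the enzymes of tubulin acetylation, the deacetylase gene Hdac6 was higher (1.11 ± 0.15, SE, limma adjusted p = 5.92e-07) and the acetyltransferase gene Atat1 lower (-0.79 ± 0.14, limma adjusted p = 3.88e-05). Sirt2, another deacetylase gene of the list, was not called (-0.31 ± 0.14, limma adjusted p = 0.0804). It had 53.8 and 54.3 FPKM in the IgG libraries and 46.9 and 40.4 in the 4E-T libraries, and was named after its values were seen. Hdac6 had 13.5 and 10.9 FPKM in the IgG libraries and 29.6 and 25.4 in the 4E-T libraries. Atat1 had 50.4 and 48.5 FPKM with IgG and 28.2 in both libraries with 4E-T. Lrrc49, a subunit of the tubulin polyglutamylase complex, was higher by 0.68 ± 0.15. With either IgG library left out the list had 3 higher, with median ratio scaling 3 higher and 5 lower, with quantile normalisation 3 and 4, and with the length trend removed 5 and 5.

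Genes of the gamma-tubulin ring complex and its anchors, the partners of Tubg1, numbered 10 higher and 2 lower among 21 tested (median 0.33). For this list and the next ones, the shares over all tested genes were 34.3% and 15.2%. The centrosome scaffold genes Pcnt (1.40 ± 0.14, SE) and Akap9 (0.99 ± 0.14) were higher, and the augmin gene Haus2 (-1.47 ± 0.15) and Mzt1 (-0.91 ± 0.14), a small subunit of the ring complex, were lower. Microtubule associated and plus-end proteins numbered 21 higher and 1 lower among 34 tested (median 0.47). Tpx2, a spindle assembly factor, was higher by 1.45 ± 0.16 and Map1s by 1.15 ± 0.14, and Mapre2 was lower (-0.51 ± 0.14), though not with IgG library 2 left out (limma adjusted p = 0.0519). That list had 15 higher and 5 lower with the length trend removed, 17 and 3 with quantile normalisation, and 16 and 2 with median ratio scaling. Destabilising and severing proteins numbered 9 higher and 1 lower among 16 tested (median 0.39). The mitotic kinesin genes Kif18a (1.20 ± 0.15) and Kif2c (1.19 ± 0.16) were higher and Katnbl1 (-0.80 ± 0.15) was lower. Without IgG library 2 this last list had 5 higher, with median ratio scaling 7 higher and 5 lower, with quantile normalisation 7 and 4, and with the length trend removed 5 and 4.

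**Figure D4:**
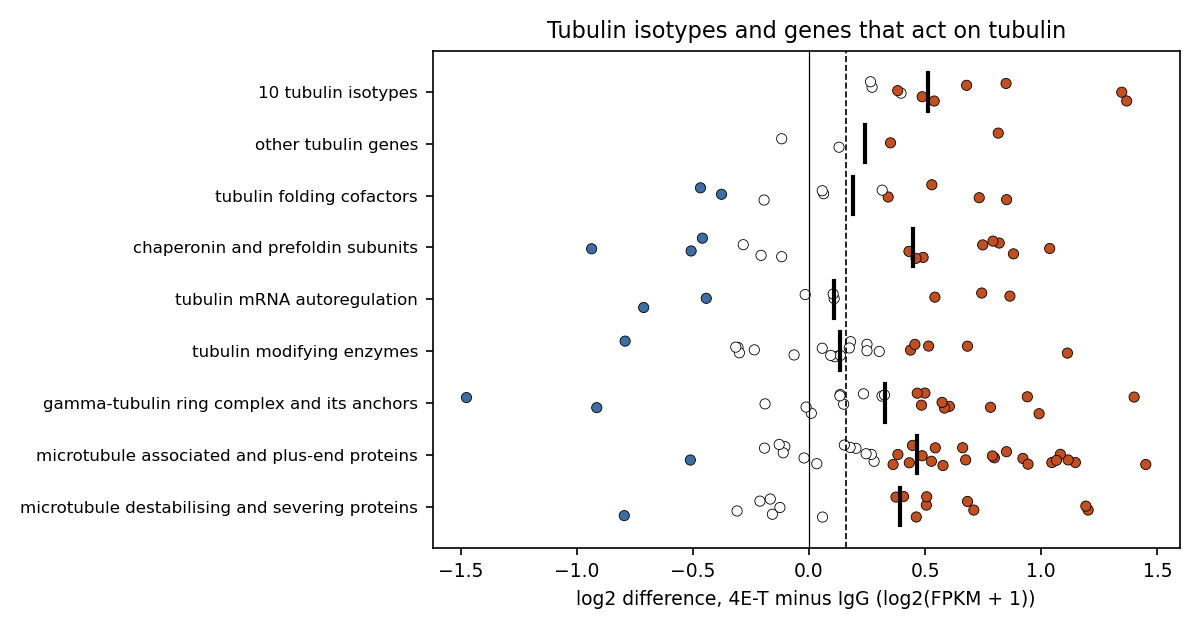
Log2 difference (4E-T minus IgG) of every tested gene of the tubulin isotypes and of the 8 other lists, with genes called higher in orange, lower in blue and not called in white. Thick bars are list medians and the dashed line is the median tested gene (0.16). The isotypes lie from 0.27 to 1.37, while the other lists spread to both sides.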

How the data were processed

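The data were 1 deposited table of genes from 4 libraries. Per the submitters' processing notes, tools included the aligner STAR 2.6.0c, the read counter HTSeq 0.6.1p2 and DESeq2 1.26.0, after trimming with Trim Galore 0.5.0, on the build mm10. No settings are given. FPKM of each gene in each library are the authors', per the file headers, and the values show that these were scaled by size factors. The authors' baseMean, per the file headers, is a signal that averages size-factor-scaled reads over the libraries. The deposited log2 fold changes, their standard errors, the test statistic (a score), the p-values and the linear fold changes are the authors' comparison of 4E-T with IgG.

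FPKM and baseMean together gave whole reads for 100% of 86952 values, within 0.01 read. They also gave exon lengths, scaled on 10 mitochondrial genes. Those reads carry the authors' counting, which limits what can be said of near-identical genes. Reads behind the members ran from 1079 to 162161 per library. Counting error was not small against the spread between libraries for Tubb3 and Tubg1 with 4E-T and Tubb6 with IgG, whose libraries lay close together. Over the genes as a whole, libraries of 1 antibody differed by more than sampling noise, with chi-square values per degree of freedom of 31.2 for IgG and 44.4 for 4E-T.

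The tested genes (12585) reached an FPKM of 1 in at least 2 libraries. Their log2(FPKM + 1) values were fitted by antibody alone in limma 3.58.1 under R 4.3.3, using the trend and robust options, and p-values were adjusted by Benjamini-Hochberg over all tested genes with a threshold of 0.05. Differences are on the log2(FPKM + 1) scale, which understates low genes. With 2 residual degrees of freedom the result rests on a spread that limma estimates over all genes. The fit and the recovery of reads were tested on simulated data. The 10 genes, the lists and the tests were chosen with earlier results of these data known. Named genes were the 10 members, the nearest patterns of the most abundant alpha and beta gene, and the 2 genes with the largest called difference per direction in each list. Gene positions are from RefSeq, GRCm38.p6. Pseudocount, filters, scaling, gene length, the replicate block and each library were varied. The value of 1 marker gene is not reported here.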

Additional observations from a re-analysis of the deposited data

How the results depend on the processing

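No member changed direction under the 12 alternatives, nor did the alpha and beta sums and their ratio under the 2 scalings and the 4 left-out libraries, nor any isotype share under the left-out libraries and recovered reads. The ratio of Tubb2b to Tubb2a, left-out libraries for which were added after seeing the data, ran from -0.017 to 0.076 on the log2 scale. Tubb2a, Tubb2b and Tubb4b were called, and Tuba1c and Tubb6 were not, in all 12 alternatives. Tuba1b was not called with no filter on low values (0.49) or with median ratio scaling (0.30). Tubg1 was not called with no filter (0.38), median ratio scaling (0.20), quantile normalisation (0.17) or the length trend removed (0.26). Leaving out 1 library at a time, the log2 difference ran from 0.28 to 0.51 for Tuba1a, 0.35 to 0.62 for Tuba1b, 0.16 to 0.38 for Tuba1c, 0.42 to 0.66 for Tubb3, 0.50 to 0.86 for Tubb5 and 0.32 to 0.44 for Tubg1. The count of members called ran from 3 to 8. The counts over all genes ran from 2389 to 4259 higher and 1101 to 1755 lower, and over the partner lists from 41 to 59 higher and 6 to 10 lower. These fits had 3 libraries, and the lone library of an antibody was assumed to vary like the others. Median ratio scaling gave 2870 higher and 2969 lower genes, and the length correction 2958 lower, against 4318 and 1912. Partner genes called lower were 25 with median ratio scaling, 25 with quantile normalisation and 26 with the length correction, against 12. Of 192 counts for single lists, 40 lay over 1.5 times from the reported count. The cause was not tested.

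With the experiment number as a replicate block, 7 members were called higher and 0 lower, and the call of no member changed. Of the lists, the tubulin modifying enzymes had 6 higher and 4 lower with the block, against 5 and 1. Deviations of same-numbered libraries correlated at 0.064 over genes, and the labels do not say that a number marks a shared culture. voom on the recovered reads, chosen after seeing the data, also called 7 members. Count models on the recovered reads had been planned and were not run, since the deposited values are FPKM. With 2 libraries per antibody the depth was not the limit.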

Other observations

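Several tubulin rows were under the level for testing, with 25 to 140 recovered reads per library. Tuba4a, an alpha-tubulin of muscle and adult neurons, had 0.465 and 0.517 FPKM in the IgG libraries and 0.546 and 0.699 in the 4E-T libraries, without overlap. Tuba8 had 0.178 and 0.2296 FPKM in the IgG libraries and 0.195 and 0.245 in the 4E-T libraries, and the antibodies overlapped. The pseudogene Tubb2a-ps2 had 0.326 and 0.253 FPKM in the IgG libraries and 0.769 and 0.954 in the 4E-T libraries, and Tubb4b-ps1 had 0.466 and 0.507 in the IgG libraries and 0.881 and 0.977 in the 4E-T libraries, without overlap for either. Tubb4b-ps2 had 0.351 and 0.211 FPKM in the IgG libraries and 0.350 and 0.329 in the 4E-T libraries, which overlapped. Reads of these pseudogenes cannot be told apart with certainty from those of the genes they copy, and they were not tested.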
